A study of Mus musculus with 4 samples.

Results

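Cadherins, protocadherins and the catenins that bind them were examined in the transcriptome of mouse tumors with and without knockdown of Taz. Members were chosen by gene symbol: the numbered Cdh genes, every Pcdh gene, Fat1 to Fat4, Dchs1 and Dchs2, the Celsr genes, the Ctnna and Ctnnd genes, and Jup. Of the 15424 genes in the authors' deposited table, 78 matched, and 29 of these averaged 1 FPKM or more over both columns and are called measured below (FPKM is the number of sequenced fragments scaled to transcript length and library size).

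The tumors grew under the skin of nude mice from transplanted R728T1 cells, a line of non-SMCs (a term the labels leave unexplained) obtained from Rb/P53 mice and labelled small cell lung cancer. Control cells (shLuc) expressed a hairpin RNA aimed at luciferase, and knockdown cells (shTaz) a hairpin aimed at Taz. Each group has 2 samples, and the labels give neither the number of animals nor the shRNA sequences, while every sample comes from the same R728T1 line. The table holds 1 FPKM column per group, so no value below has a replicate check, an SD or a test.

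Wwtr1, the gene of the coactivator TAZ, was at 23.4 FPKM with shLuc and 15.1 FPKM with shTaz. The table's gene named Taz, which is Tafazzin, was at 13.7 and 9.50 FPKM. Of 10 neuroendocrine markers 6 were not among the listed genes, Chga and Calca included. Syp (0.557 and 0.447 FPKM) and Insm1 (0.169 FPKM and listed at 0) were near 0. Ncam1 (39.8 and 43.8 FPKM) and Uchl1 (10.1 and 1.51 FPKM) were not, so the list was mixed. Sequencing depth is unknown. The tumors are bulk tissue with mouse tumor and mouse host cells together, in which fewer cells of a type and less RNA per cell cannot be told apart.

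Cadherins are membrane proteins whose extracellular repeats bind the same or a related cadherin on the neighbouring cell in the presence of calcium. The tail of a classical cadherin binds p120-catenin and beta-catenin or plakoglobin, and alpha-catenin links this complex to actin. Cell types differ in the cadherins they carry: E-cadherin marks epithelia, VE-cadherin endothelium, M-cadherin muscle precursors and cadherin-11 mesenchyme. Fat and Dachsous cadherins are very large proteins that act in tissue polarity and, in flies, upstream of the Hippo pathway, while the clustered protocadherins are best known for giving neurons distinct surface identities.

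Differences are given as log2((shTaz FPKM + 1) / (shLuc FPKM + 1)), and a difference of at least 1 either way is called 2-fold. Of the 29 measured members, 3 were 2-fold lower in the shTaz column (Cdh15, Cdh11 and Cdh22) and 2 were 2-fold higher (Pcdhga10 and Pcdhb20). Cdh22 (2.55 and 0.555 FPKM) and Pcdhga10 (0.524 and 2.77 FPKM) reached a mean of 1 FPKM only through their higher column. These counts therefore follow in part from the filter. Among all 11650 genes at that level, 3.25% were 2-fold lower and 3.96% 2-fold higher, or 7.21% either way. With so few members these counts describe the list and are not evidence that it stands apart. The member median was 0.04 against 0.12 for all genes, with 16 members above 0 and 13 below. Of all 11650 genes, 6792 were above 0 and 4858 below. Set against the median of all genes, 12 members lay above it and 17 below. Summed over all 15424 genes, FPKM was 501728 with shLuc and 427921 with shTaz, or 85.3% of the control. The sums given below for families and markers are to be read beside that ratio. The split of all genes, 461 higher and 379 lower, moved to 310 and 493 with median-ratio scaling, 294 and 455 with quantile normalization and 166 and 349 with the GC trend removed.

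**Figure D1:**
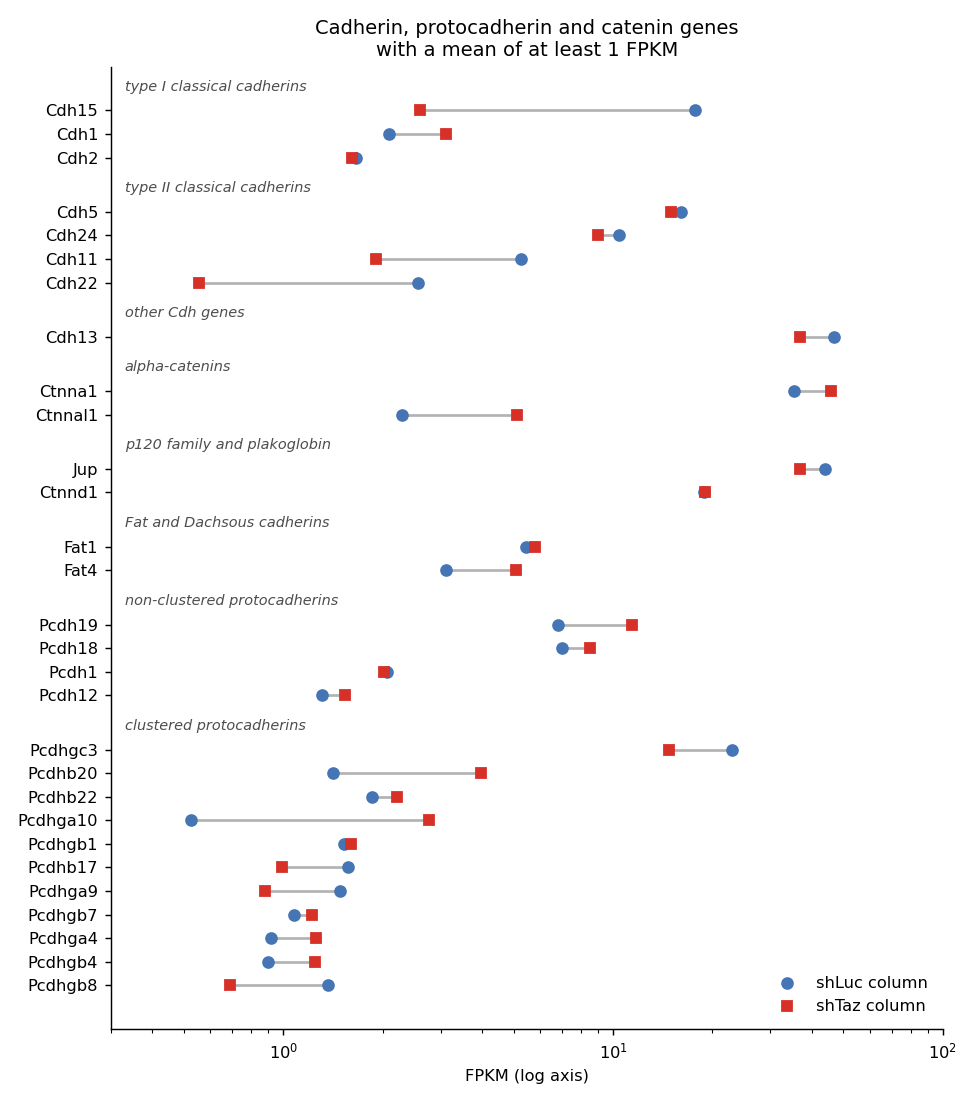
FPKM (log axis) of the 29 measured members in the shLuc column (blue circles) and the shTaz column (red squares), grouped by family; a grey line joins the values of a gene. Cdh15, Cdh11 and Cdh22 show long lines toward lower shTaz values, while the catenins Ctnna1, Jup and Ctnnd1 have their values close together.

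Among the type I classical cadherins, Cdh15 had the largest difference of all members. Cdh15 encodes M-cadherin, the cadherin of skeletal muscle precursor cells, and was at 17.7 FPKM with shLuc but 2.59 FPKM with shTaz. The shTaz value was 14.6% of the control value, and the difference was -2.38 on the log2(FPKM + 1) scale. Only 0.318% of the 11650 genes had a lower difference. By level the gene moved from the 79.9 to the 37.7 percentile of the listed genes. Its difference lay between -2.73 and -2.02 in the 9 alternative settings run. In the GENCODE M21 annotation of mm10, Cdh15 (Entrez 12555) spans bases 122847966 to 122867397 of the plus strand of chromosome 8.

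The other type I cadherins were low. Cdh1, or E-cadherin, was at 2.09 FPKM with shLuc against 3.11 FPKM with shTaz, a difference of 0.41 that stayed positive, between 0.18 and 0.55, in the 8 alternatives that include it. Cdh2, or N-cadherin, the cadherin of neural and mesenchymal cells, was nearly equal at 1.66 and 1.62 FPKM. Cdh3, or P-cadherin, a basal epithelial cadherin, was at 0.631 and 0.152 FPKM. Cdh4, or R-cadherin, was at 0.0422 FPKM and listed at 0. Summed over these 5 genes, type I cadherins reached 22.2 FPKM with shLuc against 7.47 FPKM with shTaz. The Cdh15 values alone differed by more FPKM than these sums.

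Type II classical cadherins were lower in the shTaz column at all 4 measured genes, as were 4858 of all 11650 genes. The Cdh24 difference turned to 0.24 with the GC trend removed and to 0.11 with the length and GC trends removed. Cdh11, the cadherin of mesenchymal and bone-forming cells, was at 5.26 and 1.91 FPKM, a difference of -1.10. Cdh22, a cadherin known mainly from the brain, was at 2.55 and 0.555 FPKM, a difference of -1.19. These values place Cdh11 and Cdh22 below all but 2.60% and 2.21% of the genes tested. Cdh5, or VE-cadherin of endothelial junctions, was at 16.1 and 15.01 FPKM, and Cdh24 was at 10.4 and 8.98 FPKM, so the more abundant pair of the type II genes differed little. Cdh6, Cdh10 and Cdh20 were each at or under 0.205 FPKM in both columns.

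Both genes read from the minus strand, Cdh11 (Entrez 12552) between 102632095 and 102785642 of chromosome 8 and Cdh22 (Entrez 104010) between 165111507 and 165234853 of chromosome 2. Transcripts rich in G and C tended to be lower in the shTaz column, and Cdh11 is poorer and Cdh22 richer in G and C than the median gene. The longest Cdh11 transcript has 44.9% GC, and its difference was larger with the GC trend removed (-1.49). The longest Cdh22 transcript has 62.7% GC, in the group of genes with the highest GC content, where 9.76% of 1106 genes were 2-fold lower. With the GC trend removed the Cdh22 difference was -0.69, and it was no longer 2-fold.

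Cdh13, or T-cadherin, which is held in the membrane by a lipid anchor and lacks the catenin-binding tail, had the highest FPKM of the Cdh genes in both columns, at 46.7 and 36.8. Cdh17, or LI-cadherin of the intestine, and Cdh23 of the inner ear stayed under 0.5 FPKM. The summed FPKM of the 15 listed Cdh genes was 104 with shLuc and 72.0 with shTaz, a ratio of 69.3% against 85.3% over all genes. Cdh15 made up 17.1% of that sum with shLuc but 3.60% with shTaz. It ranked 2 among the Cdh genes with shLuc and 5 with shTaz, behind Cdh13, Cdh5, Cdh24 and Cdh1. Without Cdh15 the sums were 86.2 and 69.4 FPKM, a ratio of 80.6%. Of the 8 measured Cdh genes, 7 were below 0 (all but Cdh24 in every alternative that includes them) and Cdh1 above, with a median of -0.26. Cdh2, Cdh5 and Cdh24 lay near 0, at -0.02, -0.10 and -0.19. Of all 11650 genes, 4858 were below 0, and 8 genes are too few to set the Cdh genes apart.

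**Figure D2:**
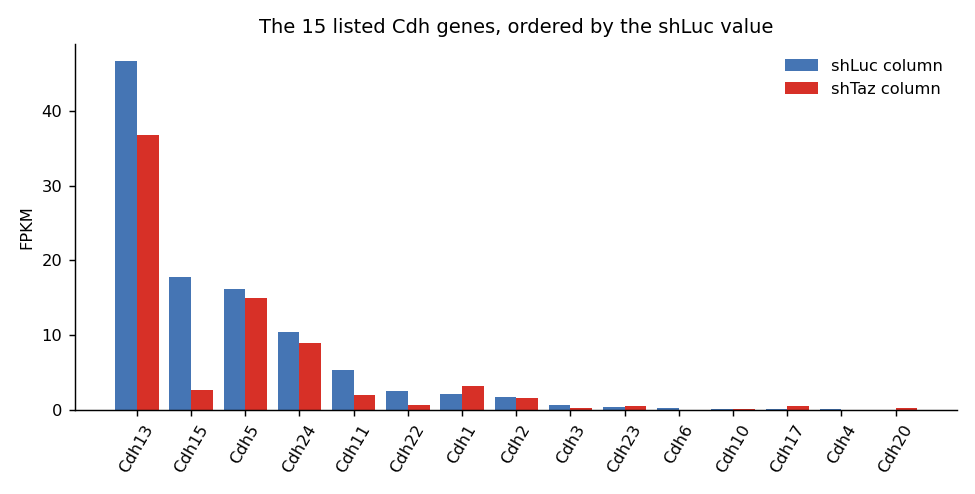
FPKM of the 15 listed Cdh genes in the shLuc column (blue bars) and the shTaz column (red bars), ordered by the shLuc value. Cdh13 is the tallest in both columns, and Cdh15 is at 17.7 FPKM in the shLuc column and at 2.59 in the other.

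Short stretches near the RefSeq starts of Cdh15 and Cdh22 are shown, and no RefSeq start was matched for Cdh11. RefSeq start sites on GRCm38.p6 were matched for 10 of the 29 members. In the 250 bases before the RefSeq start, Cdh15 has 3 copies of the E-box CANNTG, the motif that muscle and other helix-loop-helix factors bind, counted on both strands (the motif family is its own reverse complement). They start 236, 135 and 32 bases before the RefSeq start. They are shown with 10 flanking bases on each side and the E-box in capitals, at chr8:122848128-122848153, chr8:122848229-122848254 and chr8:122848332-122848357, plus strand. GENCODE M21 starts Cdh15 farther upstream, at base 122847966, so these sites lie inside its annotated gene span.
Cdh15 site 1: gcactgatcaCATATGctgtcactca
Cdh15 site 2: ggcccacctaCATGTGctgtcactca
Cdh15 site 3: ccccaccacaCACGTGcagtcccttg
Cdh22 has no CANNTG in its 250 bases but 30 CpG dinucleotides, against 5 for Cdh15. The median was 16 over the 11 start sites of these members and 6 over all promoters. Only the first 134 of the 250 Cdh22 bases lie before its GENCODE start, while the Cdh15 window lies inside its gene span. The CpG counts of Cdh15 and Cdh22 therefore do not compare like positions. The 134 bases before the GENCODE start of Cdh22, chr2:165234854-165234987, are given on the minus strand 5′ to 3′ with each CpG in capitals.
Cdh22 upstream: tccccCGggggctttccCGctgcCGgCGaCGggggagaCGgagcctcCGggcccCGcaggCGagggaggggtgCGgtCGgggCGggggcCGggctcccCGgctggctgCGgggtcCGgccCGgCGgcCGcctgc

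An E-box was present in 66.2% of 32841 RefSeq promoters of the same length, and in 5 of the 11 start sites of these members. CAGCTG, the form preferred by muscle factors, was in none of the 11 and in 13.002% of all promoters. GGAATG, the core bound by the TEAD partners of TAZ, searched on both strands, was in 1 of the 11, that of Fat1, and in 12.6% of all promoters. A match or its lack in such a window describes the letters only.

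The genes beside the lower cadherins were read as well, as a group chosen after the values were seen. Within 500 kb of Cdh15, 21 other genes averaged 1 FPKM or more, none of them 2-fold different, with a median of -0.13 and differences from -0.73 to 0.64. Within 500 kb of Cdh22, 3 of 20 such genes were 2-fold lower, against 3.25% of all genes. These were Cd40 (6.23 and 1.58 FPKM), a costimulatory receptor gene, Mmp9 (125 and 45.0 FPKM), a gelatinase gene, and Ocstamp (4.51 and 0.417 FPKM), a gene of osteoclast fusion. The median near Cdh22 was -0.44. With the GC trend removed it was -0.25, and that near Cdh15 was -0.03. Ocstamp was under 1 FPKM with shTaz and counted only through its shLuc value. No gene within 500 kb of Cdh11 averaged 1 FPKM or more.

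Cdh15, Cdh11, Cdh5, Cdh1 and Cdh3 were set beside markers of the cell types they are known from. The listed skeletal muscle markers went the other way from Cdh15. All 5 measured muscle markers were 2-fold higher with shTaz, their median was 1.78, and the summed level of the 8 listed markers was 3.38 FPKM with shLuc against 34.4 FPKM with shTaz. Acta1, Ckm, Mylpf and Des were under 1 FPKM with shLuc and counted as measured only through their shTaz values. That count and median therefore follow in part from the filter. The 3 listed markers under that mean were also higher with shTaz. Acta1, the skeletal actin gene, was listed at 0 and at 14.9 FPKM, Mylpf at 0.706 and 5.05 FPKM, Tnnt3 at 1.61 and 8.004 FPKM and Des at 0.586 and 3.004 FPKM. The precursor factors Pax7, Myod1 and Myog were not among the listed genes. The high Cdh15 value stood in the column with the lower values of the listed muscle markers. Tnnc2, the fast skeletal troponin C gene, which is not in that list but lies within 500 kb of Cdh22, was on the same side as Cdh15, at 12.4 and 5.86 FPKM.

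Cdh11 lay on the same side as the fibroblast markers, of which 5 of 10 were 2-fold lower and none 2-fold higher, with a median of -1.02 and summed levels of 2183 and 1387 FPKM. Dpt was at 18.4 and 1.16 FPKM, Dcn at 13.8 and 1.85 FPKM, Postn at 35.5 and 8.29 FPKM and Fbln1 at 10.9 and 2.52 FPKM. Pdgfra went the other way, at 8.75 and 13.5 FPKM, and Col3a1 was nearly equal at 372 and 371 FPKM. Col1a1, at 1375 and 841 FPKM, was the largest part of both sums. Pericyte markers had 2 of 7 genes 2-fold lower, Higd1b (2.34 FPKM and listed at 0) and Notch3 (4.42 and 0.918 FPKM), and 1 higher, Rgs5 (4.84 and 12.03 FPKM, and no longer 2-fold at 0.64 with the GC trend removed), with a median of -0.71 and sums of 67.9 and 60.6 FPKM. Higd1b and Notch3 were under 1 FPKM with shTaz and counted as measured only through their shLuc values. What part fibroblasts and pericytes have in the Cdh11 value was not tested.

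Cdh5 was nearly equal, and the 9 measured endothelial markers had a median of -0.59 and summed levels of 168 and 108 FPKM over the 11 listed. With the GC trend removed that median was -0.36 and Cdh5 was at -0.13. None of the 9 was 2-fold different. Plvap of fenestrated vessels was at 67.2 and 36.2 FPKM, and the tight junction gene Cldn5 at 18.2 and 10.3 FPKM, the markers with the lowest differences. Pecam1, a junction protein of endothelium, was nearly equal at 11.5 and 10.8 FPKM, and Kdr, a VEGF receptor gene, was at 1.69 and 2.68 FPKM. The endothelial protocadherin Pcdh12 was at 1.31 and 1.54 FPKM. Cdh1 stood beside epithelial markers in which Krt19 was at 1.85 and 3.84 FPKM and Krt18 at 70.2 and 54.1 FPKM, with a median of 0.29 over 3 genes and sums of 115 and 111 FPKM. Of those under a mean of 1 FPKM, Epcam was lower with shTaz (1.09 and 0.533 FPKM), while Cldn4 and Cldn7 were higher, each from 0. The epithelial list thus lay on both sides of 0. The epithelial genes Cldn3, Ocln, Esrp1 and Grhl2 were not among the listed genes. Keratinocyte markers, the usual company of Cdh3, had sums of 13.7 and 20.5 FPKM and 1 of 4 genes 2-fold higher, Itga6 (2.71 and 7.06 FPKM), whose difference was 0.90 with the GC trend removed.

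**Figure D3:**
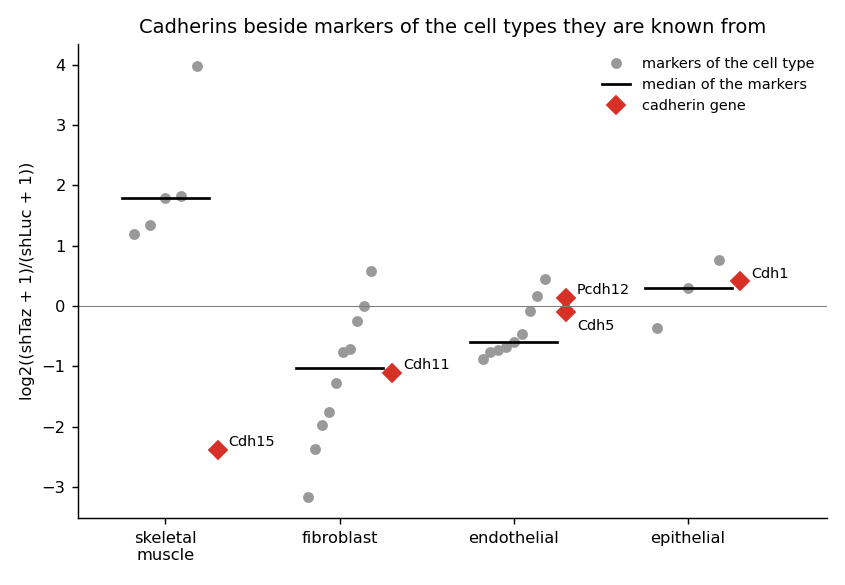
Difference on the log2(FPKM + 1) scale of cadherin genes (red diamonds) beside measured markers of 4 cell types (grey circles, black line at their median). Cdh15 lies at -2.38 while the 5 muscle markers lie above 1, Cdh11 lies close to the fibroblast median of -1.02, and Cdh5 and Pcdh12 lie near 0, above the endothelial median of -0.59.

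Macrophage markers, the most abundant of these lists, had a median of 0.32 with sums of 2934 and 2584 FPKM, and none of 9 was 2-fold different. Of the neuroendocrine markers only 2 were measured, Uchl1 (10.1 and 1.51 FPKM) and Ncam1 (39.8 and 43.8 FPKM), and the sums were 50.6 and 45.7 FPKM. The ratios of the sums, 88.1% for macrophage and 90.5% for neuroendocrine markers, were near the 85.3% over all genes.

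The catenins, which hold the cadherin complex to the cytoskeleton, lay on both sides of 0. Ctnna1, or alpha-E-catenin, the actin link, was at 35.4 FPKM with shLuc and 45.8 FPKM with shTaz, a difference of 0.37. Ctnnd1, or p120-catenin, which keeps cadherins at the surface, was at 18.9 and 19.01 FPKM. Jup, or plakoglobin, was at 44.0 and 36.9 FPKM, a difference of -0.25 that turned to 0.06 with the GC trend removed. Ctnnb1, or beta-catenin, which the symbol rule leaves out, was at 58.7 and 80.0 FPKM. Together Ctnna1, Ctnnb1, Ctnnd1 and Jup summed to 157 and 182 FPKM. Ctnnd1 and Jup kept within 0.40 of 0 in all alternatives run.

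Ctnnal1, or alpha-catulin, a relative of alpha-catenin, was at 2.28 and 5.10 FPKM. Its difference of 0.89 was just short of 2-fold. It ranged from 0.45 with the length and GC trends removed to 1.13 with a pseudocount of 0.1. Ctnnd2, or delta-catenin of neurons, was at 0.281 and 0.117 FPKM. Ctnna2 and Ctnna3 were not among the listed genes.

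Of the Fat and Dachsous cadherins, Fat4 and Fat1 were measured. Fat4, the main mammalian partner of Dchs1, was at 3.12 and 5.08 FPKM, a difference of 0.56 that stayed positive, from 0.27 to 0.69, in the 8 alternatives that include it. Fat1, which regulates actin at cell contacts, was at 5.43 and 5.80 FPKM, and its difference of 0.08 went below 0 after quantile normalization, after median-ratio scaling, and after removal of the length trend alone or with the GC trend. Dchs1, the ligand, was at 1.07 and 0.807 FPKM. Dchs1 averaged under 1 FPKM, so its side of 0 is uncertain and was not set against that of Fat4. Fat2 and Fat3 stayed under 0.35 FPKM and Dchs2 was not among the listed genes. The Celsr genes, cadherins of planar cell polarity, summed to 0.765 and 0.493 FPKM over all 3 members, so the family was barely detected.

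Among the non-clustered protocadherins, Pcdh19, a gene best known from a form of epilepsy, had the largest difference. It was at 6.83 and 11.4 FPKM, a difference of 0.66 that stayed positive, from 0.25 to 0.73, in the 9 alternatives run. Pcdh18, its close relative in the delta group, was at 7.02 and 8.53 FPKM. Pcdh1 was nearly equal at 2.06 and 2.02 FPKM. The signs of Pcdh18, Pcdh1 and Pcdh12 turned in at least 1 alternative each. Pcdh7, Pcdh10 and Pcdh17 were under 0.5 FPKM in both columns.

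Clustered protocadherins made up 43 of the 78 members, and 32 of these had a mean under 1 FPKM. Genes of the alpha and of the gamma cluster are spliced to shared last exons, so reads there cannot be given to a single gene, and the values of single genes in these clusters are uncertain. Pcdhgc3, a member of the gamma cluster used widely outside the nervous system, stood far above the others at 22.9 FPKM with shLuc and 14.8 FPKM with shTaz. Its difference of -0.60 ranged from -0.84 to -0.47 in the alternatives run. It held 57.4% of the summed gamma FPKM with shLuc and 46.5% with shTaz.

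All 3 C-type gamma genes were lower in the shTaz column, with Pcdhgc4 at 1.24 and 0.706 FPKM and Pcdhgc5 at 1.47 and 0.484 FPKM. Pcdhgc4 and Pcdhgc5 averaged under 1 FPKM, so their side of 0 is uncertain. Of the 18 A- and B-type genes, 7 were lower and 11 higher in the shTaz column. Among them, 8 A-type and 3 B-type genes averaged under 1 FPKM. Of all genes, 4858 of 11650 at that mean and 1889 of 3774 under it were lower, so these counts do not set the cluster apart. The 11 A-type genes summed to 7.75 and 9.05 FPKM, but to 7.23 and 6.28 FPKM without Pcdhga10, and the 7 B-type genes to 6.52 and 6.76 FPKM. The 20 gamma genes other than Pcdhgc3 together summed to 16.98 FPKM with shLuc and 16.996 FPKM with shTaz. That near equality rests on Pcdhga10, without which the sums were 16.5 and 14.2 FPKM. Pcdhga10 was at 0.524 and 2.77 FPKM, a difference of 1.31. In Pcdhga10 the difference remained 2-fold in the 8 alternatives that include it, from 1.06 to 2.20.

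**Figure D4:**
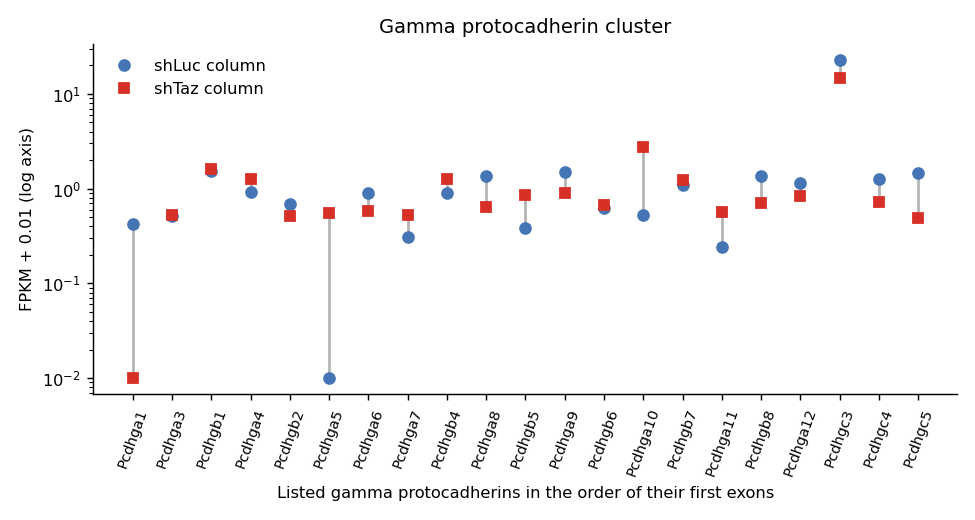
FPKM + 0.01 (log axis) of the 21 listed gamma protocadherins in the shLuc column (blue circles) and the shTaz column (red squares), in the order of their first exons along the cluster; points at 0.01 are listed at 0. Pcdhgc3 lies more than 10 FPKM above every other gene, its C-type neighbours are also lower in the shTaz column, and Pcdhga10 goes from 0.524 to 2.77 FPKM; the longest upward shift drawn, that of Pcdhga5, starts from a value listed at 0.

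Beta protocadherins have no shared exons. Pcdhb20 was at 1.42 and 3.97 FPKM, a difference of 1.04, and made up 15.7% of the summed beta FPKM with shLuc and 34.5% with shTaz. This call was borderline. The Pcdhb20 difference was 0.94 with median-ratio scaling and 0.64 with the GC trend removed. Pcdhb22 was at 1.85 and 2.20 FPKM and Pcdhb17 at 1.57 and 0.992 FPKM, so the abundant beta genes did not move together. The 17 listed beta genes summed to 9.02 and 11.5 FPKM. Close sequence likeness among them leaves single values uncertain too. The 5 alpha genes summed to 0.498 and 0.979 FPKM, and 2 of them were listed at 0 in each column.

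Pcdhgb1, Pcdhgb4, Pcdhgb7, Pcdhgb8, Pcdhga4 and Pcdhga9 complete the measured members. Their values ran from 0.688 to 1.60 FPKM, and none was 2-fold different. Of all 49 members under that mean, 20 were higher in the shTaz column and 29 lower, with no value above 1.47 FPKM. Over all 3774 genes under that mean, 1885 were higher and 1889 lower.

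Differences were also set beside transcript GC content and length. Across the 29 measured members the Spearman correlation of the difference with GC content was -0.37, and across 11055 genes it was -0.56. Genes share their libraries and are not replicates, so these are descriptions. The median GC content was 52.2% for the members and 50.2% for all genes, and the median transcript length 4713 and 3264 bases. With the length trend removed the member median was -0.21 and that of all genes 0.00. With the GC trend removed these were 0.06 and 0.00. Cdh15, at 59.9% GC, kept a difference of -2.02 with the GC trend removed.

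**Figure D5:**
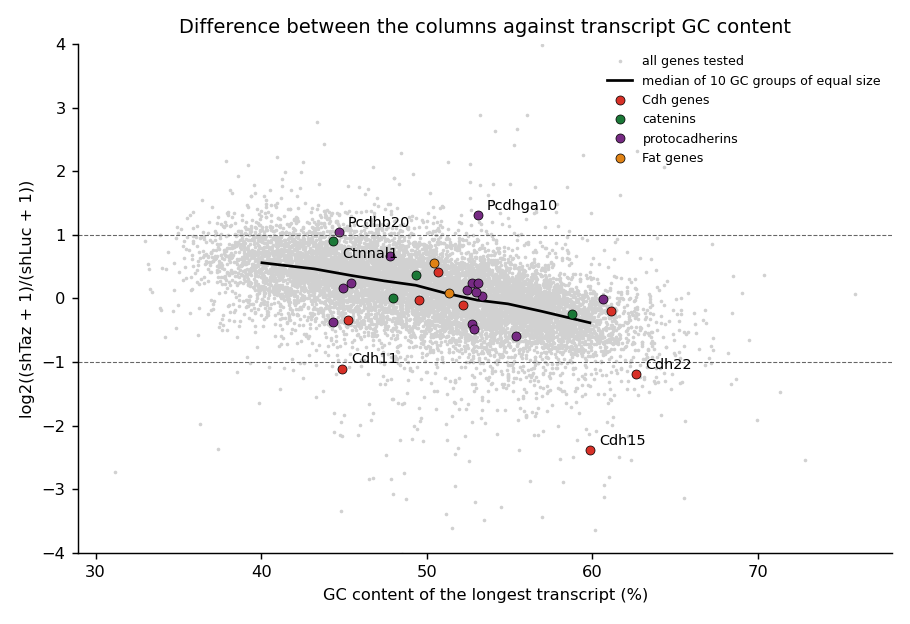
Difference on the log2(FPKM + 1) scale against the GC content of the longest transcript (%), for all genes tested (grey) and the members (colours by family); the black line joins the medians of 10 groups of equal size by GC content, dashed lines mark 2-fold, and 13 genes beyond 4 on the vertical axis are not drawn. Cdh15 and Cdh11 lie well below the line at both high and low GC content, and Cdh22 lies among GC-rich transcripts.

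Other genes of cadherin adhesion were taken from 6 lists, in which 5 of 64 measured genes differed 2-fold (7.81%), near the 7.21% of all genes. Of the 22 measured adherens junction partners, Ctnnal1 included, 1 was 2-fold higher and 1 lower, with a median of 0.11. Rap1a, a small GTPase that strengthens adhesion, was at 14.0 and 34.1 FPKM, and its difference of 1.23 was 0.65 with the GC trend removed. Nectin1, a junction receptor listed as Pvrl1, was at 7.14 and 2.05 FPKM. Of 7 desmosome genes none was 2-fold different. Perp, a tetraspan protein of desmosomes, was at 12.8 and 25.7 FPKM and Pkp2 at 1.55 and 2.78 FPKM. The desmosomal cadherins were missing from the listed genes or, for Dsg2, at 0.0790 and 0.0990 FPKM.

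Of 14 genes that cleave or modify cadherins, 2 were 2-fold lower and none higher. Mmp3, or stromelysin, was at 10.5 and 1.61 FPKM, and Mmp9 was named above. The sheddase Adam10, which cuts E- and N-cadherin, was not 2-fold different, at 9.41 and 17.1 FPKM. Of 10 core planar polarity genes 1 was 2-fold higher, Vangl2, a membrane protein that acts with the Celsr cadherins, at 3.57 and 9.53 FPKM. Of 8 partners of the Fat and Dachsous system none was 2-fold different, with Mpdz at 3.87 and 7.79 FPKM and Atn1 at 52.7 and 36.4 FPKM. Among 3 other cadherin superfamily genes none was 2-fold different, with Cdhr1 at 3.30 and 1.58 FPKM and Clstn3 at 0.975 and 1.59 FPKM.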

How the data were processed

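Tumors were frozen and their RNA taken up in Trizol, per the labels' protocols. Trim Galore and TopHat on mm10 are named in the submitters' processing notes. Versions, the FPKM program, the annotation and the strand setting are not given in the sources used here. The authors deposited FPKM values in 1 column per group, and how the 2 samples of a group were joined is not stated. A search for whole reads placed at best 25.9% (shLuc) and 27.4% (shTaz) of low values within 0.1 of a whole step, where 20% is chance for a single step, so depth was not recovered and no interval is given.

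The members and gene lists were chosen with earlier results of these data known. Differences used a pseudocount of 1 FPKM and a mean of at least 1 FPKM, with no further scaling. The plan held limma for a table with a column per sample; for 1 column per group it held no test and a 2-fold rule, which was used. Named genes are all members at that mean, Cdh genes of types I and II below it, and up to 4 genes per list that differed 2-fold, or else the 2 that differed most. Other names were chosen after their values were seen. Results for 1 marker list are not reported here. Of 176 list genes 148 were matched by symbol or Entrez identifier. The longest GENCODE M21 transcript gave length and GC content (94.9% of genes tested, all 78 members), promoter sequences from RefSeq (GRCm38.p6). Trends were removed by lowess (span 0.3, statsmodels 0.14.6, Python 3.11.15), tested on simulated data. Alternatives were median-ratio scaling, a pseudocount of 0.1, a filter at 5 FPKM or none, quantile normalization, removal of the GC trend, the length trend or both, and genes above 0 in both columns. Leaving out the clustered protocadherins was added after seeing the data.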

Additional observations from a re-analysis of the deposited data

How the results depend on the processing

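Cdh15 stayed 2-fold lower in all 9 alternatives and Cdh11 in the 8 that include it. The filter at 5 FPKM, no filter and the restriction to genes above 0 in both columns only change which genes are kept. They leave the difference of each gene as it was, so only the other alternatives could move a call. Cdh22 lost its call without the GC trend (-0.69) or without either trend (-0.86). With a mean of at least 5 FPKM the members counted 0 higher and 1 lower, over 11 genes, with a median of -0.10. The count of higher members was 1 with median-ratio scaling, quantile normalization, the GC trend, the length trend or both removed, since Pcdhb20 lost its call (0.94, 0.85, 0.64, 0.86 and 0.62), and 0 without the clustered protocadherins. The member median was -0.11 after quantile normalization, -0.21 without the length trend and -0.076 without either trend, against 0.04 as reported. With median-ratio scaling it was -0.04 and without a filter -0.014. The median of all genes moved too. The member median minus that of all genes was -0.073 as reported and 0.061 without the GC trend. It was -0.135 after quantile normalization, -0.204 without the length trend, -0.074 without either trend, -0.040 with median-ratio scaling and -0.100 without a filter. Among all genes the higher count was 996 with a pseudocount of 0.1, 294 with quantile normalization, 166, 293 and 209 with the GC trend, the length trend or both removed, and 219, with 215 lower, at a mean of at least 5 FPKM. The causes of these changes were not tested. No paired analysis was possible because the table holds 1 column per group; for the same reason no replicate was left out and limma was not run. Low members rest on few fragments, and depth is unknown.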
